A study of Mus musculus with 9 samples.

Results

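Interferon-stimulated genes are the genes that cells switch on when they sense an interferon, the signalling protein that warns tissue of infection. The 41 genes described here were taken by name from the gene tables of 9 RNA-seq libraries of sorted mouse germinal center B cells. All 41 were found among the 23700 entries of each table, and 30 of the 41 were expressed highly enough to be tested. Values are the authors' deposited FPKM, fragments counted on a gene per kilobase of its transcript and scaled for the size of the library. At least 1 FPKM in at least 3 of the 9 libraries was required of a tested gene, which 10004 genes met. A member that met it through a single group with high values had to differ between groups, so the counts below cover the tested members and not all members.

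Per the labels, C57BL/6 mice received B cells of both genotypes in equal parts, were immunized with the hapten NP on chicken gamma globulin in alum, and took tamoxifen by mouth on days 7 to 9. Spleens were taken on day 12. The Foxo1-deficient group (3 libraries) held CD45.1/2 cells that were Foxo1(f/f) and also carried B1-8hi(KI/+) and ERT2cre(KI/+), sorted as whole germinal center cells (B220+ NP+ GL7+ CD38-) with no zone gate. The dark zone group (DZ, 3 libraries) and the light zone group (LZ, 3 libraries) held CD45.1/1 cells that were Foxo1(+/+) with the same B1-8hi(KI/+) and ERT2cre(KI/+) alleles, sorted as CD86-low CXCR4-high and CD86-high CXCR4-low. All groups thus carried the NP-binding B1-8hi receptor and the tamoxifen-activated Cre, and all saw tamoxifen. Genotype and zone gate changed together between Foxo1-deficient and wild-type libraries, so their effects cannot be told apart. Whether separate animals gave the 3 libraries of a group is not in the labels, and p-values therefore cover only the spread between libraries, which may be technical.

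Type I interferons signal through a receptor pair and the kinases Jak1 and Tyk2. These activate a complex that holds STAT2 and IRF9 and binds a DNA element called the interferon-stimulated response element. Interferon gamma uses another receptor, and its signal ends at a different element, the gamma-activated site. B cells carry receptors for both kinds of interferon, and in germinal centers interferon gamma from follicular helper T cells is known to act on them. FOXO1 is a forkhead transcription factor that is needed for the dark zone program.

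The label checks came out on the side of the labels. Foxo1 read 3.01, 1.79 and 0.808 FPKM in the Foxo1-deficient libraries, against 24.5, 19.5 and 19.1 FPKM in DZ and 14.8, 18.7 and 22.1 FPKM in LZ. Cd86, a light zone gate marker, read 58.8, 55.0 and 55.7 FPKM in Foxo1-deficient, 16.9, 18.2 and 12.5 FPKM in DZ and 52.4, 58.3 and 44.3 FPKM in LZ libraries. Cxcr4, the dark zone gate marker, read 24.7, 17.6 and 24.6 FPKM in Foxo1-deficient, 78.5, 79.5 and 59.6 FPKM in DZ and 28.9, 33.0 and 37.9 FPKM in LZ libraries. The summed level of 9 germinal center B cell markers lay between 1502 and 2349 FPKM in every library. The 7 T cell markers in the tables summed to 14.7 to 24.8 FPKM in Foxo1-deficient, 11.4 to 20.1 FPKM in DZ and 26.2 to 28.4 FPKM in LZ libraries, nearly all of it Lck, with Cd3e, Cd3g, Cd4 and Cd247 listed at 0 throughout. Plasma cell markers summed to 233 to 355 FPKM in Foxo1-deficient, 189 to 289 FPKM in DZ and 124 to 151 FPKM in LZ libraries. Conventional dendritic cell markers summed to 14.2 to 18.1, 6.51 to 11.2 and 10.0 to 25.2 FPKM in the same order. Natural killer cell markers summed to at most 1.20 FPKM in any library. Markers of macrophages, neutrophils and erythroid cells were higher in the Foxo1-deficient libraries. The 15 macrophage and monocyte markers in the tables summed to 126, 168 and 247 FPKM there, against 13.5, 17.6 and 7.34 FPKM in DZ and 21.0, 16.9 and 11.1 FPKM in LZ. Macrophages and neutrophils express many interferon-stimulated genes, so such sums are given again below, beside the low members. Relative depth, estimated from the deposited confidence intervals, ran from 0.835 in Foxo1-deficient replicate 3 to 1.1 in DZ replicate 1.

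Many classical interferon targets were at or near 0 in all 3 groups, while other members were read in every library. Mx2, an antiviral GTPase, was listed at 0 in all 9 libraries. The RNA sensor Ifih1, Ifit1, Mx2 and Ifi44 stayed under 1 FPKM in every library. In contrast, 21 of 41 members reached 1 FPKM in every library and 9 reached 5 FPKM in every library. Irf1, Samhd1, Tap1 and Tap2 passed 30 FPKM in at least 1 library. The median of the 41 member means was 3.00 FPKM in Foxo1-deficient, 2.32 FPKM in DZ and 3.39 FPKM in LZ cells. Over all tested genes it was 7.41, 6.38 and 7.52 FPKM in the same groups. The sets are not alike, because the 41 include 11 members below the level needed for a test. Over the tested members alone, the mean log2(FPKM + 1) of a library ran from 2.54 to 2.83. Over all tested genes it ran from 2.89 to 3.31. The interferon genes on the list, Ifnb1, Ifna1, Ifna2, Ifna4, Ifng and Il28b, were listed at 0 in all 9 libraries.

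**Figure D1:**
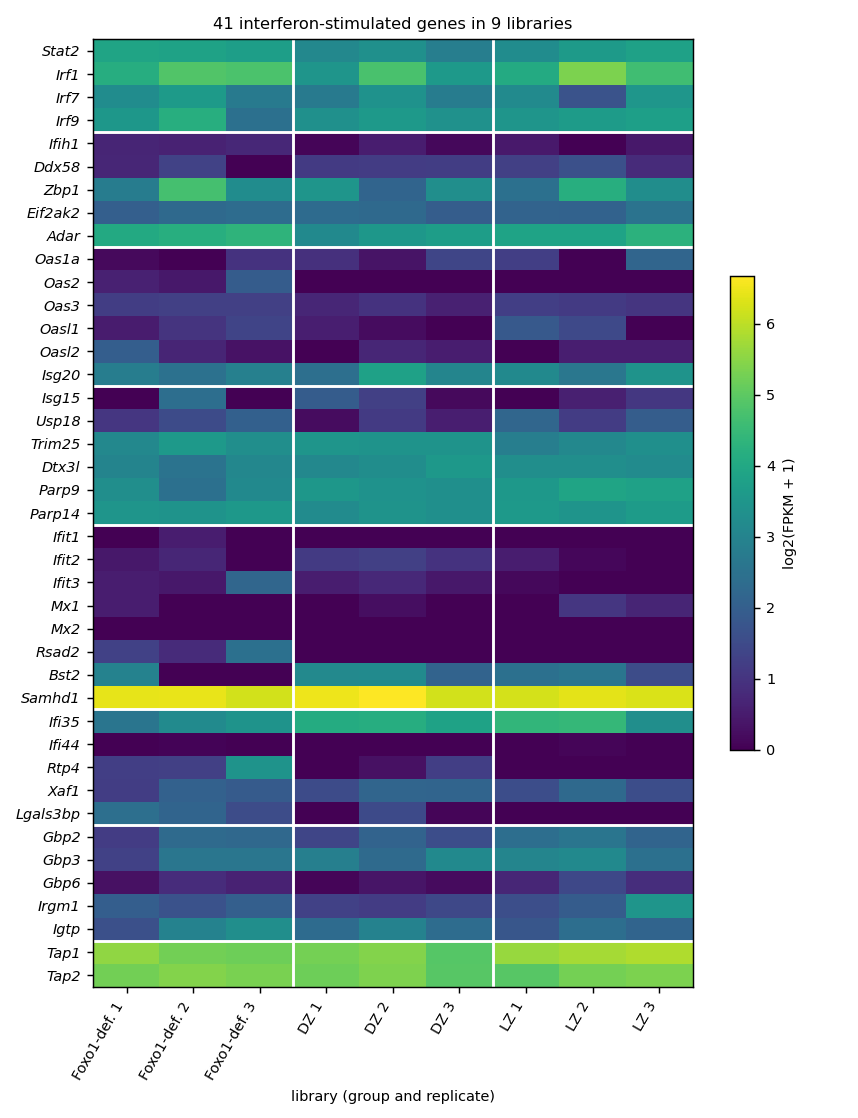
Level of each of the 41 interferon-stimulated genes (rows) in each of the 9 libraries (columns, Foxo1-deficient left of DZ and LZ), as log2(FPKM + 1). Samhd1, Tap1 and Tap2 are bright in every column and Mx2 is at 0 in every column.

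Promoters show which members carry the DNA elements of the pathway. RefSeq promoters (build GRCm38.p6) were matched by symbol for 31 of the 41 members, and the 250 bases before the annotated start were searched on both strands. The core of the response element, GAAA followed by any 2 bases and a second GAAA, was found in 12 of 39 member promoters (30.8%), against 2.98% of 32851 promoters of the same length. The gamma-activated site TTCNNNGAA was found in 20.5% of member promoters, against 7.02% of all. The forkhead motif TGTTTAC was found in 5.13% of member promoters, those of Gbp3 and Rsad2, against 3.17% of all. Promoters of 4 members with matches and of 1 without are printed 5′ to 3′, each ending at the base before the start, with the matches in capitals. Rsad2 (chr12:26456453-26456702, minus strand) and Lgals3bp (chr11:118401960-118402209, minus strand) are shown because their levels differed by library, Isg15 (chr4:156200819-156201068, minus strand) and Ifit1 (chr19:34640639-34640888, plus strand) as classical targets that were low here, and Irf1 (chr11:53769764-53770013, plus strand) as an expressed factor.

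Rsad2: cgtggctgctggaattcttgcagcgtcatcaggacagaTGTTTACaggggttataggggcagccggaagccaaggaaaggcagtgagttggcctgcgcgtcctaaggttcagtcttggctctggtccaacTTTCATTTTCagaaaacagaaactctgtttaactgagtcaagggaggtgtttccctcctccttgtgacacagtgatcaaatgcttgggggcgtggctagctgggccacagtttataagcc

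Isg15: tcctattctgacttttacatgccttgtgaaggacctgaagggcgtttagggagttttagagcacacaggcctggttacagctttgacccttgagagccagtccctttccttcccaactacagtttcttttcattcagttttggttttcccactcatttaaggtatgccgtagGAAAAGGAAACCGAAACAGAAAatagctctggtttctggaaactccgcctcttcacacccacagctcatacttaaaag

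Ifit1: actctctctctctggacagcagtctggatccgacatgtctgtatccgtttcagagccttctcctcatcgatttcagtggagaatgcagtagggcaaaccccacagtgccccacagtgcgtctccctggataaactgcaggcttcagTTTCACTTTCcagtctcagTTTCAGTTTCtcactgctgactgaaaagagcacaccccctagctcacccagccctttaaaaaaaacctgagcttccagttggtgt

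Irf1: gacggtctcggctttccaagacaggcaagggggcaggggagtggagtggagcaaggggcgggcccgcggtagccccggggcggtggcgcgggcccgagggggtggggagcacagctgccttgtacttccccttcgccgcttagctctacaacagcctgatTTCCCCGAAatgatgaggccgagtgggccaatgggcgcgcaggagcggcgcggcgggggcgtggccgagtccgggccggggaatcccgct

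Lgals3bp: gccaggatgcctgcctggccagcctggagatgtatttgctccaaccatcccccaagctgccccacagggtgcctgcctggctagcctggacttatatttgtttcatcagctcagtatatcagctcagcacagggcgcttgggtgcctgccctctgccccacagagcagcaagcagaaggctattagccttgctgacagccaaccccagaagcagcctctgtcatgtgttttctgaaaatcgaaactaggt

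In Rsad2 the capitals mark a forkhead match and a response element match, the first one farther from the start. In Isg15 they mark 3 overlapping response element matches and in Ifit1 2 separate ones. In Irf1 they mark a gamma-activated site. Lgals3bp held none of these letters in this window. Members with the response element core had a median of 2.26 FPKM in Foxo1-deficient, 1.48 FPKM in DZ and 2.51 FPKM in LZ cells (12 members). The 19 matched members without it had medians of 5.75, 7.06 and 6.95 FPKM in the same groups. A match describes letters and was not tested as a binding site.

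The factors that drive the response were expressed, and none of them passed the test in any comparison. Stat2, a subunit of the type I complex, read 13.9, 13.4 and 12.4 FPKM in Foxo1-deficient, 7.70, 9.08 and 6.24 FPKM in DZ and 8.46, 11.4 and 12.9 FPKM in LZ libraries. All 3 Foxo1-deficient libraries were above all 3 DZ libraries, and they overlapped with LZ at the top. The log2 difference from DZ was 0.73 ± 0.23 (SE; adjusted p = 0.133 by limma with Benjamini-Hochberg adjustment over all tested genes). Irf1, a factor induced mainly by interferon gamma, read 16.8, 28.1 and 26.2 FPKM in Foxo1-deficient, 10.1, 26.1 and 11.0 FPKM in DZ and 16.0, 39.7 and 23.4 FPKM in LZ libraries. The second replicate was the highest of each group, and the groups overlapped. Irf1 had a limma adjusted p of 0.448 between Foxo1-deficient and DZ and of 0.413 between DZ and LZ. Irf7, the amplifier of type I interferon production, read 8.54, 11.4 and 5.65 FPKM in Foxo1-deficient, 5.74, 9.48 and 5.95 FPKM in DZ and 8.18, 2.25 and 10.4 FPKM in LZ libraries. Irf9, the DNA-binding part of the type I complex, read 10.5, 17.0 and 4.46 FPKM in Foxo1-deficient, 9.17, 11.1 and 9.32 FPKM in DZ and 10.1, 11.5 and 12.6 FPKM in LZ libraries. Irf7 and Irf9 each varied more within a group than between groups, Irf9 most among the Foxo1-deficient libraries.

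**Figure D2:**
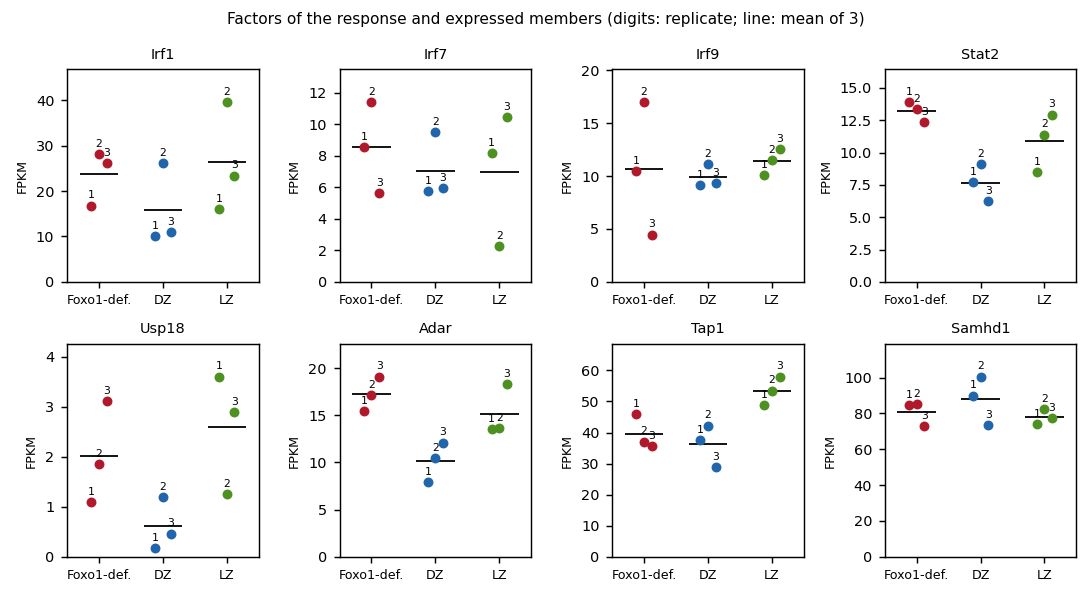
FPKM per library (digits give the replicate, lines the mean of 3) of factors and expressed members in Foxo1-deficient, DZ and LZ cells. Stat2 lies at 12.4 to 13.9 FPKM in Foxo1-deficient libraries and at 6.24 to 9.08 FPKM in DZ libraries.

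Of the sensors and double-stranded RNA enzymes, 4 of 5 were tested and none passed in any comparison. Adar, which edits adenosines in double-stranded RNA, read 15.4, 17.1 and 19.1 FPKM in Foxo1-deficient, 7.93, 10.4 and 12.1 FPKM in DZ and 13.5, 13.7 and 18.3 FPKM in LZ libraries. DZ was below both other groups with no overlap, by 0.72 ± 0.22 log2 units below Foxo1-deficient cells (limma adjusted p = 0.123) and by 0.54 ± 0.22 log2 units below LZ cells (limma adjusted p = 0.268). The kinase Eif2ak2, which shuts down translation on viral RNA, averaged 3.70 ± 0.57 FPKM in Foxo1-deficient, 3.60 ± 0.634 FPKM in DZ and 3.81 ± 0.86 FPKM in LZ cells (SD, n = 3 each). The cytosolic RNA sensor Ddx58 lay between 0 and 2.08 FPKM, and the nucleic acid sensor Zbp1 between 3.44 and 25.0 FPKM, with overlapping groups.

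The OAS enzymes, which make the signal that activates RNase L, were low, and 4 of the 6 genes of this set, Isg20 included, were tested. None passed. Oas3 averaged 1.37 ± 0.0539 FPKM in Foxo1-deficient, 0.711 ± 0.237 FPKM in DZ and 1.20 ± 0.152 FPKM in LZ cells (SD, n = 3 each). The RNA exonuclease Isg20 was the highest of the set, at 4.40 to 13.0 FPKM. Oasl1, an OAS-like gene, read 0.413, 1.01 and 1.59 FPKM in Foxo1-deficient, 0.48, 0.163 and 0 FPKM in DZ and 2.63, 1.76 and 0 FPKM in LZ libraries. Both wild-type groups held a library at 0, and the DZ and LZ values overlapped.

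The ubiquitin-like modifier Isg15, among the strongest interferon targets in most cells, was low here. It read 0, 4.27 and 0 FPKM in Foxo1-deficient, 2.86, 1.42 and 0.131 FPKM in DZ and 0, 0.51 and 1.13 FPKM in LZ libraries. No group was uniformly high. Usp18, the protease that removes ISG15 and damps the receptor, read 1.10, 1.86 and 3.10 FPKM in Foxo1-deficient, 0.168, 1.20 and 0.461 FPKM in DZ and 3.60, 1.26 and 2.89 FPKM in LZ libraries. The DZ libraries were all below the LZ libraries, by 1.14 ± 0.40 log2 units (limma adjusted p = 0.204), and they overlapped with Foxo1-deficient cells (0.90 ± 0.40, limma adjusted p = 0.298).

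Parp9 and Dtx3l, partners in an ADP-ribosylation and ubiquitin complex, were lower in Foxo1-deficient libraries than in wild-type ones without passing the test. Parp9 read 8.81, 4.49 and 7.93 FPKM in Foxo1-deficient, 10.5, 9.51 and 9.07 FPKM in DZ and 10.8, 13.7 and 13.2 FPKM in LZ libraries. No Foxo1-deficient library reached the lowest wild-type library. The log2 difference was -0.78 ± 0.26 from LZ (limma adjusted p = 0.189) and -0.45 ± 0.26 from DZ (limma adjusted p = 0.427). Dtx3l averaged 6.42 ± 1.44 FPKM in Foxo1-deficient, 9.00 ± 1.58 FPKM in DZ and 8.65 ± 0.274 FPKM in LZ cells (SD, n = 3 each). On mm9 the gene spans of Parp9 (chromosome 16, 35938556 to 35972707) and Dtx3l (chromosome 16, 35926601 to 35939113) overlap, and the labels do not say whether strand was used in counting, so reads of the overlap may be split between them. Parp14, of the same family, averaged 10.3 ± 0.552 FPKM in Foxo1-deficient, 9.01 ± 0.728 FPKM in DZ and 10.8 ± 0.819 FPKM in LZ cells (SD, n = 3 each). Trim25, the ubiquitin ligase that activates the sensor encoded by Ddx58, lay between 6.21 and 10.9 FPKM across the 9 libraries.

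Among the antiviral effectors, only Bst2 and Samhd1 of 8 met the level needed for a test. Samhd1, which depletes deoxynucleotides, was the most abundant of the 41 members. It read 84.6, 85.4 and 73.1 FPKM in Foxo1-deficient, 90.0, 101 and 73.4 FPKM in DZ and 74.0, 82.6 and 77.4 FPKM in LZ libraries. The groups overlapped, with log2 differences of 0.05 ± 0.15 from LZ and -0.11 ± 0.15 from DZ (limma adjusted p = 0.92 and 0.775). Bst2, the tetherin that holds budding virus on the cell, read 6.82, 0 and 0 FPKM in Foxo1-deficient, 7.73, 8.08 and 3.34 FPKM in DZ and 4.49, 5.01 and 1.95 FPKM in LZ libraries. Foxo1-deficient replicate 1 lay within the wild-type range, and the other libraries of that group were listed at 0. Genes flagged as failed had been left out, so these zeros carry no such flag. A 0 in tables of this kind can still be a failed estimate, which was not tested. Bst2 is also on the list of 8 plasmacytoid dendritic cell markers, which summed to 88.3 to 148 FPKM in Foxo1-deficient, 67.7 to 88.8 FPKM in DZ and 128 to 144 FPKM in LZ libraries, mostly from Ly6d, Tcf4 and Pacsin1. Siglech stayed at or below 0.363 FPKM, and Klk1 and Cox6a2 were listed at 0 in all 9 libraries. The Bst2 limma adjusted p was 0.493 against LZ and 0.227 against DZ, and without Foxo1-deficient replicate 1 it was 0.045 and 0.0136.

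Rsad2 and Oas2 were listed at 0 in all 6 wild-type libraries and above 0 in all 3 Foxo1-deficient libraries. This pattern, chosen after the values were seen, held for 2 of the 41 members and for 65 of 22977 genes (0.283%). Rsad2, the radical enzyme viperin (mm9 chromosome 12, 27127608 to 27141317), read 1.44, 0.774 and 4.52 FPKM in the Foxo1-deficient libraries, with deposited counting intervals of 0.977 to 1.88, 0.439 to 1.10 and 3.57 to 5.52 FPKM. Oas2 (mm9 chromosome 5, 121180342 to 121199857) read 0.541, 0.341 and 2.85 FPKM there. Replicate 3 was the highest for both. Neither gene met the level needed for a test, and in a fit with no such filter the limma adjusted p was 0.28 for Rsad2 and 0.591 for Oas2 against LZ, and 0.206 and 0.482 against DZ. Ifit3, whose human counterpart is a partner of IFIT1, shared the high replicate 3, with 0.438, 0.347 and 3.59 FPKM in Foxo1-deficient, 0.444, 0.709 and 0.343 FPKM in DZ and 0.0945, 0 and 0 FPKM in LZ libraries. Ifit2 had another pattern, with 0.353, 0.629 and 0 FPKM in Foxo1-deficient, 1.19, 1.42 and 0.965 FPKM in DZ and 0.436, 0.0752 and 0 FPKM in LZ libraries. Its DZ libraries were above all others, with a limma adjusted p of 0.23 against LZ and of 0.303 for Foxo1-deficient against DZ in the fit with no filter.

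Of the other interferon-induced genes, Lgals3bp was the single member that passed the test in any comparison. It reached 1 FPKM in 4 libraries, among them all 3 Foxo1-deficient ones, so it was tested only through the group where it was high, and with no filter its limma adjusted p against LZ was 0.197. This secreted galectin-binding glycoprotein (mm9 chromosome 11, 118254066 to 118263245) read 4.44, 3.46 and 1.92 FPKM in Foxo1-deficient, 0, 1.83 and 0.0736 FPKM in DZ and 0, 0 and 0 FPKM in LZ libraries. The lowest Foxo1-deficient library was just above the highest DZ library, whose deposited interval of 1.08 to 2.53 FPKM covers it. Lgals3bp rose against LZ (limma adjusted p = 0.044) and had a limma adjusted p of 0.104 against DZ, which was 0.0425 without DZ replicate 2. The call against LZ was kept in 3 of 15 alternative settings, with adjusted p between 0.0305 and 0.197, and was lost when any single Foxo1-deficient or LZ library was left out, or DZ replicate 1 or 3. Rtp4, a chaperone of receptors, read 1.35, 1.42 and 9.73 FPKM in Foxo1-deficient, 0, 0.229 and 1.37 FPKM in DZ and 0, 0 and 0 FPKM in LZ libraries. Again replicate 3 was the highest of its group, and replicate 1 was within the DZ range. The limma adjusted p of Rtp4 was 0.138 against LZ and 0.228 against DZ. Like Lgals3bp, Rtp4 reached 1 FPKM in 4 libraries, among them all 3 Foxo1-deficient ones. With no filter its limma adjusted p against LZ was 0.467.

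Markers of neutrophils, macrophages and erythroid cells were also higher in the Foxo1-deficient libraries. The neutrophil markers summed to 81.7, 132 and 133 FPKM in Foxo1-deficient, 1.92, 2.23 and 4.04 FPKM in DZ and 3.28, 5.82 and 3.19 FPKM in LZ libraries (10 of 11 markers in the tables, with 2, 8 and 9 of them at 0 in all replicates). Most of the Foxo1-deficient sum was S100a8 (21.1, 54.4 and 44.9 FPKM) and S100a9 (52.5, 56.6 and 80.5 FPKM). Elane and Mpo were listed at 0 in all 9 libraries, and Ngp and Camp were above 0 only in Foxo1-deficient replicate 2. Of the 8 tested macrophage and monocyte markers, 5 rose in Foxo1-deficient cells against LZ and 7 against DZ. Over all tested genes, 0.69% and 2.1% were called higher in these comparisons. Csf1r, Ccr2 and Tyrobp, listed at 0 in all wild-type libraries, were among the markers tested only through the Foxo1-deficient libraries. The counts of risen markers are therefore not independent of the filter. Lyz2, lysozyme of macrophages and neutrophils, read 51.6, 61.2 and 127 FPKM in Foxo1-deficient libraries and at most 0.174 FPKM in any wild-type library. Cd14 and Marco were listed at 0 in all 9 libraries, and 3 of the 15 macrophage markers in Foxo1-deficient, 8 in DZ and 10 in LZ libraries were at 0 in all replicates. The erythroid markers summed to 198, 166 and 544 FPKM in Foxo1-deficient, 12.9, 21.7 and 13.2 FPKM in DZ and 21.9, 29.6 and 44.4 FPKM in LZ libraries. The macrophage sum, the erythroid sum, Rsad2, Oas2, Ifit3 and Rtp4 were all highest in Foxo1-deficient replicate 3, while Lgals3bp was lowest there. That library also had the lowest relative depth (0.835) and the most tested genes listed at 0 (589, against 119 to 331 in the others). Within the Foxo1-deficient group the erythroid sum, Rsad2, Oas2 and Ifit3 were lowest in replicate 2. The macrophage sum, the neutrophil sum and Rtp4 were lowest in replicate 1. In bulk RNA, more cells of a type and more RNA per cell cannot be told apart. The part of these cells in the levels of Lgals3bp, Rtp4, Rsad2, Oas2 and Ifit3 was not tested.

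**Figure D3:**
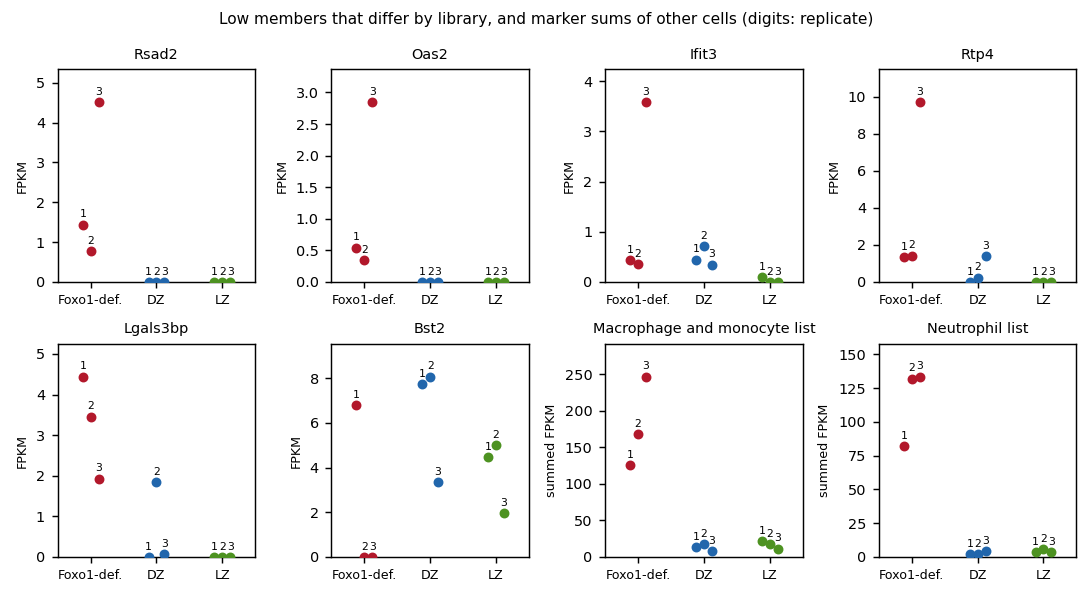
FPKM per library (digits give the replicate) of low members, and summed FPKM of marker genes of other cells, in Foxo1-deficient, DZ and LZ cells. Foxo1-deficient replicate 3 is highest for Rsad2 (4.52 FPKM), Oas2, Ifit3 and Rtp4 (9.73 FPKM), and the macrophage sum is 126 to 247 FPKM in Foxo1-deficient against 7.34 to 21.0 FPKM in wild-type libraries.

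Ifi35, a leucine zipper protein of the response, was lower in Foxo1-deficient cells without passing the test. It read 5.03, 8.15 and 9.81 FPKM in Foxo1-deficient, 16.2, 16.7 and 13.4 FPKM in DZ and 19.9, 20.7 and 8.79 FPKM in LZ libraries. All Foxo1-deficient libraries were below all DZ libraries, and LZ replicate 3 fell within the Foxo1-deficient range. The log2 difference was -0.96 ± 0.33 from DZ and -0.97 ± 0.33 from LZ (limma adjusted p = 0.17 and 0.209). Xaf1, a proapoptotic interferon target, lay between 1.30 and 3.86 FPKM with overlapping groups.

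The interferon-inducible GTPases, which attack the vacuoles of intracellular pathogens, were expressed at low levels, and 4 of 5 were tested. None passed. Irgm1, the regulator of the family, read 2.97, 2.23 and 3.03 FPKM in Foxo1-deficient, 1.44, 1.27 and 1.74 FPKM in DZ and 2.03, 2.81 and 10.1 FPKM in LZ libraries. DZ was below every library of both other groups, and LZ replicate 3 stood far above the rest. The log2 difference between DZ and LZ was -1.03 ± 0.44 (limma adjusted p = 0.288), and -0.46 without LZ replicate 3. Gbp2, a guanylate-binding protein, read 1.29, 3.94 and 3.76 FPKM in Foxo1-deficient, 1.64, 3.34 and 1.99 FPKM in DZ and 4.35, 5.06 and 3.40 FPKM in LZ libraries. The DZ libraries were all below the LZ libraries, narrowly (-0.69 ± 0.36, limma adjusted p = 0.415). Gbp3 lay between 1.46 and 7.98 FPKM and Igtp between 2.11 and 8.86 FPKM, with overlapping groups.

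The peptide transporter of antigen presentation was among the most abundant of the members. Tap1 read 45.9, 37.1 and 35.7 FPKM in Foxo1-deficient, 37.5, 42.2 and 28.9 FPKM in DZ and 48.8, 53.5 and 58.0 FPKM in LZ libraries. LZ was above both other groups without overlap, with log2 differences of -0.43 ± 0.18 for Foxo1-deficient against LZ (limma adjusted p = 0.325) and -0.56 ± 0.18 for DZ against LZ (limma adjusted p = 0.166). Its partner Tap2 averaged 39.5 ± 2.35 FPKM in Foxo1-deficient, 35.0 ± 5.45 FPKM in DZ and 35.7 ± 5.53 FPKM in LZ cells (SD, n = 3 each), with overlapping groups.

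Over the 3 comparisons, 1 of the 30 tested members passed the test. Between Foxo1-deficient and LZ cells 1 of 30 tested members rose and 0 fell, while 1.56% of all tested genes passed, 0.69% higher and 0.87% lower. At an unadjusted p under 0.05 there were 5 of 30, where 13.4% of all tested genes had one. All 3 libraries were higher for 2 members (8.12% of all tested genes) and lower for 3 (9.37%). The 2 higher ones were Lgals3bp and Rtp4. Both met the level for a test only through the Foxo1-deficient libraries, so the counts of higher members are not independent of the filter. The median log2 difference was -0.09 over the members and -0.02 over all tested genes. Leaving out single libraries moved the members' median between -0.22 (without Foxo1-deficient replicate 2) and 0.048 (without Foxo1-deficient replicate 1).

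Between Foxo1-deficient and DZ cells 0 of 30 members passed by limma, with 2.85% of all tested genes called, 2.1% higher and 0.75% lower. An unadjusted p under 0.05 was reached by 7 of 30, against 16.3% of all tested genes. All 3 Foxo1-deficient libraries were above DZ for 5 members (17.3% of all tested genes) and below for 3 (5.78%). Lgals3bp, tested only through the Foxo1-deficient libraries, was among these 5. The median log2 difference was 0.10 over the members and 0.12 over all tested genes. The members' median was 0.0070 without Foxo1-deficient replicate 2. It was -0.019 with DZ replicate 3 left out and 0.21 with DZ replicate 2 left out, and median centring turned it to -0.075.

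Between DZ and LZ cells 0 of 30 members passed by limma, with 1.94% of all tested genes called, 0.56% higher and 1.38% lower. An unadjusted p under 0.05 was reached by 4 of 30, all lower in DZ, against 15.4% of all tested genes. DZ libraries were all below LZ for 8 members (17.1% of all tested genes) and all above for 1 (5.16%). The median log2 difference was -0.08 over the members and -0.15 over all tested genes. The members' median reached -0.16 with single libraries left out (without LZ replicate 2), and median centring turned it to 0.11. The same Foxo1-deficient libraries enter both genotype comparisons, and each wild-type group enters 2 comparisons.

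**Figure D4:**
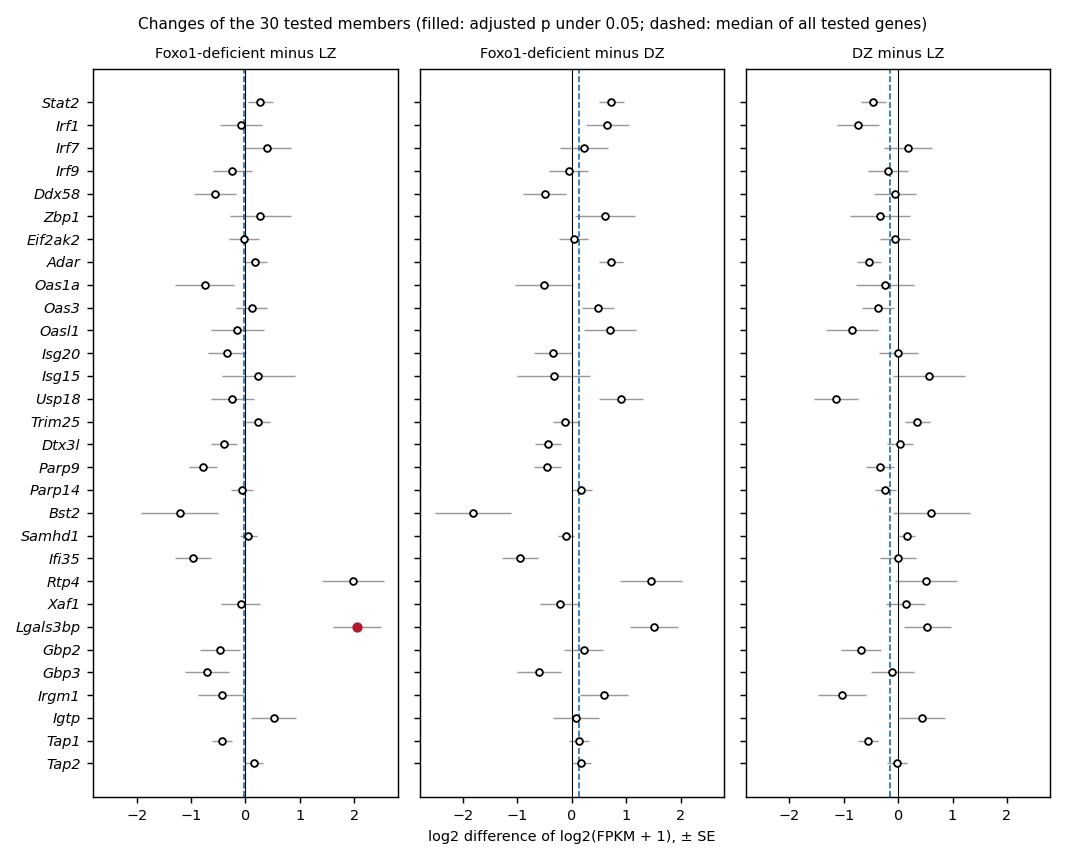
Log2 difference with its SE for the 30 tested members in the 3 comparisons (filled where the adjusted p is under 0.05). Lgals3bp against LZ is the single filled point, and the dashed medians of all tested genes lie at -0.02, 0.12 and -0.15.

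Levels of the members were little correlated across libraries. Over the 435 pairs of tested members, the median Pearson r of log2(FPKM + 1) across the 9 libraries was 0.073, and over pairs of all 10004 tested genes it was 0.080. These points share library and depth, and the values are descriptive. Pairs above 0.8 were Usp18 with Parp14 (r = 0.92) and Adar with Parp14 (r = 0.81). Stat2 was most like Oas3 (r = 0.793), Irf1 most like Gbp2 (r = 0.755), Irf9 most like Ddx58 (r = 0.732) and Irf7 most like Lgals3bp (r = 0.442). For deviations from group means, the median r was 0.085 over the members and 0.089 over all tested genes. By that measure Stat2 with Oas3 had an r of 0.16 and Stat2 with Tap2 of 0.92. Irf1 with Gbp2 had 0.73, Irf9 with Ddx58 had 0.79 and Irf7 with Lgals3bp had 0.42.

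A further 3 genes of the pathway, outside the member list, passed the test. Of 36 such genes 30 were tested, and 2 rose in Foxo1-deficient cells against DZ, 1 fell in DZ against LZ, and 0 passed between Foxo1-deficient and LZ cells by limma, where 2.85%, 1.94% and 1.56% of all tested genes passed in these comparisons. An unadjusted p under 0.05 was reached by 11, 11 and 6 of the 30, against 16.3%, 15.4% and 13.4% of all tested genes. Some settings gave further calls. The proteasome activator Psme2 was lower in Foxo1-deficient than in LZ cells under median centring (limma adjusted p = 0.0435), quantile normalization (0.0405) and the replicate block (0.0408), against 0.0848 as reported. Ifngr1, the ligand-binding chain of the interferon gamma receptor, read 33.5, 32.5 and 27.4 FPKM in Foxo1-deficient, 13.7, 11.7 and 6.94 FPKM in DZ and 24.3, 16.0 and 11.5 FPKM in LZ libraries. Foxo1-deficient libraries were above every wild-type library. Ifngr1 rose against DZ by 1.49 ± 0.29 log2 units (limma adjusted p = 0.0207) and was 0.87 ± 0.29 above LZ without passing (limma adjusted p = 0.207). Irf5, a factor of Toll-like receptor signalling, read 69.1, 60.5 and 57.2 FPKM in Foxo1-deficient, 35.8, 28.9 and 30.3 FPKM in DZ and 38.8, 58.5 and 51.8 FPKM in LZ libraries. It rose against DZ by 0.96 ± 0.18 log2 units (limma adjusted p = 0.0179), with LZ overlapping the Foxo1-deficient libraries. Both calls were lost without Foxo1-deficient replicate 1 or 2 or DZ replicate 2 or 3, and with no filter on low values, with adjusted p up to 0.141 for Ifngr1 and 0.0807 for Irf5. Macrophages express Ifngr1 and Irf5 as well. Within the Foxo1-deficient group both genes were highest in replicate 1 and lowest in replicate 3, where the macrophage sum was 126 and 247 FPKM. The part of macrophages in these levels was not tested.

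Tapbp, the tapasin that loads class I molecules, fell in DZ against LZ. It read 21.8, 23.4 and 18.0 FPKM in DZ and 40.7, 47.5 and 39.4 FPKM in LZ libraries, with 29.7, 33.9 and 29.3 FPKM in Foxo1-deficient libraries between them. The groups did not overlap, and the DZ to LZ difference was -0.98 ± 0.17 log2 units (limma adjusted p = 0.0165). This call was lost without DZ replicate 1 or 3 or LZ replicate 2, with adjusted p up to 0.07. Of the 30 tested pathway genes, 29 were lower and 1 was higher in DZ than in LZ, where 34.8% of all tested genes were higher. Their median was -0.39, against -0.15 over all tested genes. These signs depend on the scale of the libraries. Median centring moved the median of all tested genes to 0.04 and Tapbp to -0.79, and the count of signs was not repeated under it. All DZ libraries were below all LZ libraries for 13 of the 30 genes and for 17.1% of all tested genes. Against DZ, all Foxo1-deficient libraries were above for 11 of the 30 (17.3% of all tested genes) and below for 1 (5.78%). Against LZ, they were above for 1 (8.12%) and below for 6 (9.37%). By sign, 22 of the 30 were higher in Foxo1-deficient than in DZ cells and 9 higher than in LZ cells. Over all tested genes these shares were 61.2% and 48%.

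**Figure D5:**
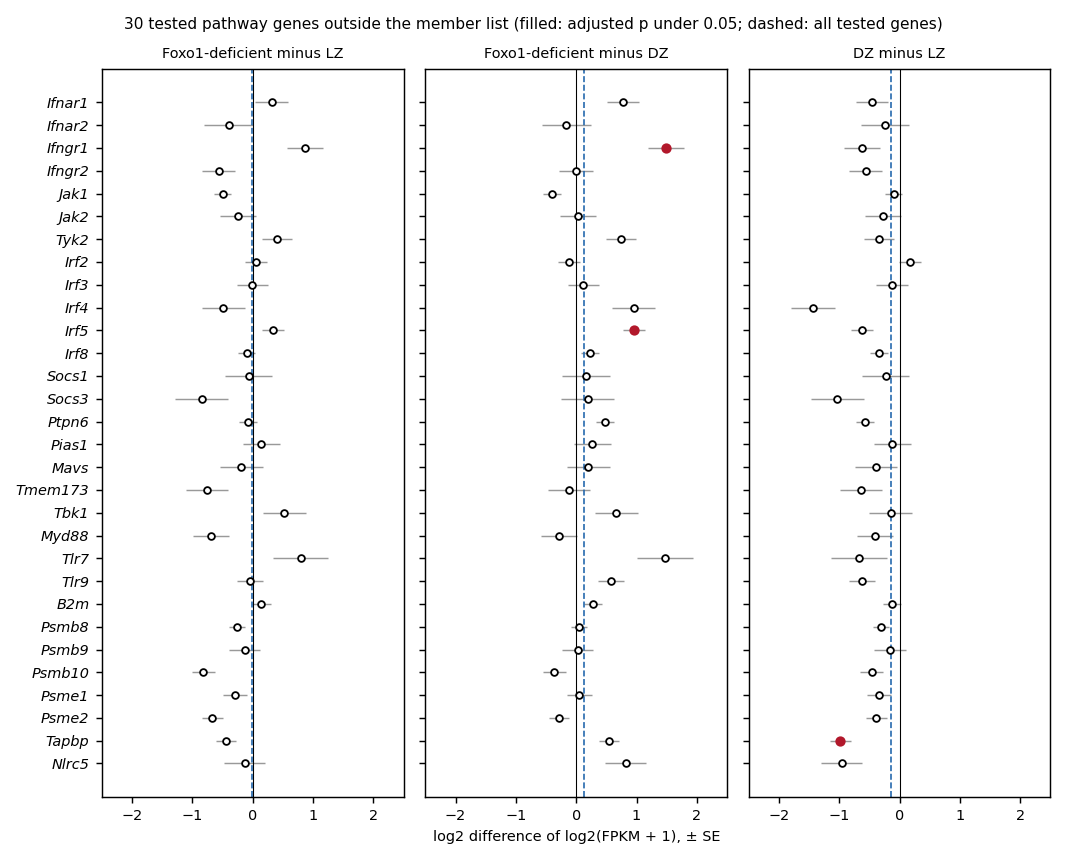
Log2 difference with its SE for the 30 tested pathway genes outside the member list in the 3 comparisons (filled where the adjusted p is under 0.05). Ifngr1 and Irf5 are filled in Foxo1-deficient minus DZ and Tapbp in DZ minus LZ. In DZ minus LZ, 1 of 30 points lies above 0 without median centring, against 34.8% of all tested genes.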

How the data were processed

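RNA of sorted cells was taken up in TRIzol and made into libraries with the NEBNext Ultra kit, per the labels' protocols. Cufflinks 2.1.1, TopHat2 2.0.8 and the mm9 build are listed, per the submitters' processing notes, without their roles. The authors deposited 1 gene table per library with FPKM and the bounds of its confidence interval, per the file headers. Depth is not stated, so relative depth was estimated from those intervals, which cover counting error only.

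Left out were 716 entries of 250 repeated symbols and 7 genes with a failed estimate, which left 22977 genes. Log2(FPKM + 1) was tested with limma 3.58.1 (R 4.3.3) with an intensity trend, on the 10004 genes with at least 1 FPKM in at least 3 libraries. All 9 libraries entered 1 fit on 3 group means. P-values are two-sided, and adjusted p is Benjamini-Hochberg over all tested genes with a threshold of 0.05. Changes are the group named first minus the second, and this scale understates the change of low genes. The procedure was tested on simulated data with normal noise and no floor at 0. That setting differs from the low members here, so it does not show how often their changes would be found. Genes with an estimate flagged as failed were left out, but a value of 0 without a flag can still be a failed estimate. Genes with zeros are therefore given per library. Among 3842 genes with a median of at least 10 FPKM, 20 were listed at 0 in Foxo1-deficient replicate 3. In each other library it was 1 to 6.

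The members and gene lists were chosen with earlier results of these data known. A gene of the pathway list is not reported here. Named with every library's value are members past the threshold, the 5 largest differences of each comparison, the 4 factors, and pathway genes past the threshold; others named were chosen after their values were seen. Alternatives were a pseudocount of 0.1, no filter, median centring, quantile normalization, a fit of the compared groups alone, a replicate block, and each library left out. Deviations of same-numbered replicates had r between -0.0674 and 0.0752, against -0.112 to 0.0503 for other pairs. None passed the r of 0.1 that was asked for, so they were not treated as pairs. This check cannot exclude pairing, and the replicate block treats them as paired. The labels give a CD45.2-negative gate for CD45.1/2 cells, and which entry holds was not settled. Promoters come from RefSeq (GRCm38.p6), gene positions from the deposited tables (mm9), and no position was converted.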

Additional observations from a re-analysis of the deposited data

How the results depend on the processing

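With 3 libraries a group, no member other than Lgals3bp was called in the fit as reported, and low members stayed too near 0 to be tested. The count of members called between Foxo1-deficient and LZ cells, 1 as reported, was 0 with a pseudocount of 0.1, without the filter, in a fit of just the compared groups and with a replicate block. It ranged from 0 to 1 when single libraries were left out. The call without Foxo1-deficient replicate 1 was Bst2 (-2.20, limma adjusted p = 0.045). Between Foxo1-deficient and DZ cells the count, 0 as reported, ranged from 0 to 1 with single libraries left out. Between DZ and LZ cells it was 0 in every setting run, the replicate block included.

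Median centring moved the members' median between Foxo1-deficient and DZ to -0.075, against 0.10 as reported, and quantile normalization to -0.061, while the median of all genes became -0.06 and 0.00. Between DZ and LZ the members' median became 0.11 and 0.077, and that of all genes 0.04 and 0.01. Under the same settings 44.6% and 60.8% of calls over all genes were higher in Foxo1-deficient than in DZ cells, against 73.7% as reported. In DZ against LZ the higher share was 56.8% and 42.8%, against 28.9%. Calls over all genes ranged from 48 to 213 between Foxo1-deficient and LZ (156 as reported), from 127 to 406 between Foxo1-deficient and DZ (285) and from 68 to 234 between DZ and LZ (194).

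Some uncalled differences changed sign with single libraries left out. Between Foxo1-deficient and LZ, Irf1 ranged from -0.38 to 0.25, Irf7 from -0.15 to 0.76 and Irf9 from -0.64 to 0.22. Irf9 ranged from -0.45 to 0.41 between Foxo1-deficient and DZ, and Irf7 from -0.38 to 0.53 between DZ and LZ. Irf9 was 0.0016 between DZ and LZ under median centring. None of these passed the test. Calls gained by pathway genes, beside Psme2, were Psmb10 between Foxo1-deficient and LZ (adjusted p = 0.0442) and Jak1 between Foxo1-deficient and DZ (0.0421), both by limma under median centring, and Irf4 between DZ and LZ with the replicate block (0.0372) and without DZ replicate 2 (0.0469). The call of Cxcr4 between DZ and LZ, used as a gate check, was kept in 10 of 15 settings. The cause of these changes was not tested.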
